A study of Saccharomyces cerevisiae with 6 samples.

Results

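Sulfate assimilation and methionine synthesis in budding yeast were followed through 39 genes, chosen by name for their roles in taking up and reducing sulfate, in making methionine, cysteine and S-adenosylmethionine (SAM), in carrying these compounds across the plasma membrane and in regulating the pathway. The choice was made with earlier results of these data known, which limits every comparison of the members with all genes below. All 39 had at least 1 probe set listed under that gene alone (47 probe sets in all), out of 5656 such genes on the array. Their mRNA was measured on 6 Affymetrix-type arrays, 3 from wild-type Saccharomyces cerevisiae and 3 from a strain whose histone H3 carries arginine in place of lysines 4 and 79 (H3 K4,79R, called the mutant below). Cells of both groups grew in rich YPD medium to mid-log phase. The labels name no strain background, no auxotrophic marker, no other allele and no copy of the H3 genes that was altered, and nothing in them shows that the 3 samples of a group were separate cultures. P-values therefore reflect how far these samples spread, which could be technical in part or whole.

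Yeast takes up sulfate through plasma membrane permeases, activates it with ATP in consecutive steps and reduces it to sulfite and then to sulfide. Sulfide is joined to O-acetylhomoserine, a carbon skeleton that comes from aspartate, to give homocysteine, which is methylated to methionine or passed through cystathionine to cysteine. Methionine is converted to SAM, the methyl donor of nearly all cellular methylation, including that of histone H3 at lysines 4 and 79. The activator Met4, held on DNA by Cbf1, Met28, Met31 and Met32 and restrained by the ubiquitin ligase subunit Met30, drives most genes of the pathway when sulfur compounds run short. Rich medium supplies methionine, and many of these genes are known to be little expressed in it.

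Array-wide properties bear on every value below. The median signal over all non-control probe sets lay between 34.1 and 36.8 on the wild-type arrays and was 31.8, 42.9 and 40.1 on mutant arrays 1, 2 and 3. The deposited mutant values carry a constant per array, found from the values to be 0.922, 1.09 and 1.11, and 1 in wild type. A mean over all probe sets without the extremes was 115, 136 and 138 on mutant arrays 1, 2 and 3 as deposited. With the constants divided out it was 125.1 on every array of both groups. Mutant array 1 correlated with mutant arrays 2 and 3 at 0.975 and 0.979 over probe sets, which are not independent, while arrays 2 and 3 correlated at 0.988. Its ratio of 3′ to 5′ signal for ACT1, a control of RNA integrity, was 1.00, against 1.498 to 1.64 on the other 5 arrays. The same ratio for SPT15 was 2.79 and 3.35 on mutant arrays 2 and 3 and 5.02 to 6.15 on the other 4, and that for SRB4 was 6.74 on mutant array 1 and 3.18 to 4.88 on the other 5. Results that rest on mutant array 1 are therefore given with and without it, and the part that RNA quality has in them was not tested.

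Among the 39 genes, 3 rose in the mutant and none fell, at a limma adjusted p under 0.05 over all 5380 genes that passed a filter on low signal. All 39 passed that filter, SUL1 only through its mutant arrays. The 3 are STR3, MET2 and MET28, an enzyme of cysteine to homocysteine conversion, an enzyme of methionine synthesis and a regulator. They make up 7.69% of the members, where 4.26% of all tested genes were called (2.81% higher and 1.45% lower). The calls rested on few arrays, among all genes as well as among the members. No member was called without wild-type array 1, wild-type array 2, mutant array 2 or mutant array 3. In those fits 0.409%, 0.427%, 0.948% and 0.874% of all genes were called. Without wild-type array 3 only STR3 was called, beside 1.21% of all genes. Without mutant array 1, 10 members were called higher and 2 lower, beside 16.0% of all genes called higher and 4.83% called lower.

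Log2 changes over the members ranged from -0.49 (MET12) to 1.10 (STR3), with a median of 0.25 beside 0.04 for all tested genes. They were positive for 30 and negative for 9 members, beside 54.9% positive among all tested genes. In 15 members (38.5%) all mutant arrays read above all wild-type arrays, and in 4 members (10.3%) all read below. Over all tested genes these shares were 16.7% and 12.2%. Without SUL1, whose place among the tested genes came from the mutant arrays, the counts are 14 and 4 of 38. Counts of groups that do not overlap, here and below, are at the deposited scaling and were not repeated with other scaling. At an unadjusted limma p under 0.05 stood 19 of the 39 members, beside 22.2% of all tested genes. SUL1 is among these 19 and among the 30 positive members, and for the same reason adds no support to either count. How the arrays were scaled moved the sign of small changes. With quantile normalization, a common median or the array constants found in the deposited values divided out, 25, 23 and 26 members were positive. The median of all genes was then -0.027, -0.056 and -0.0094, and the members' median stayed 0.20 to 0.21 above it on the log2 scale. These settings changed the balance among all called genes from 65.9% higher to 49.2%, 43.6% and 52.7% higher.

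**Figure D1:**
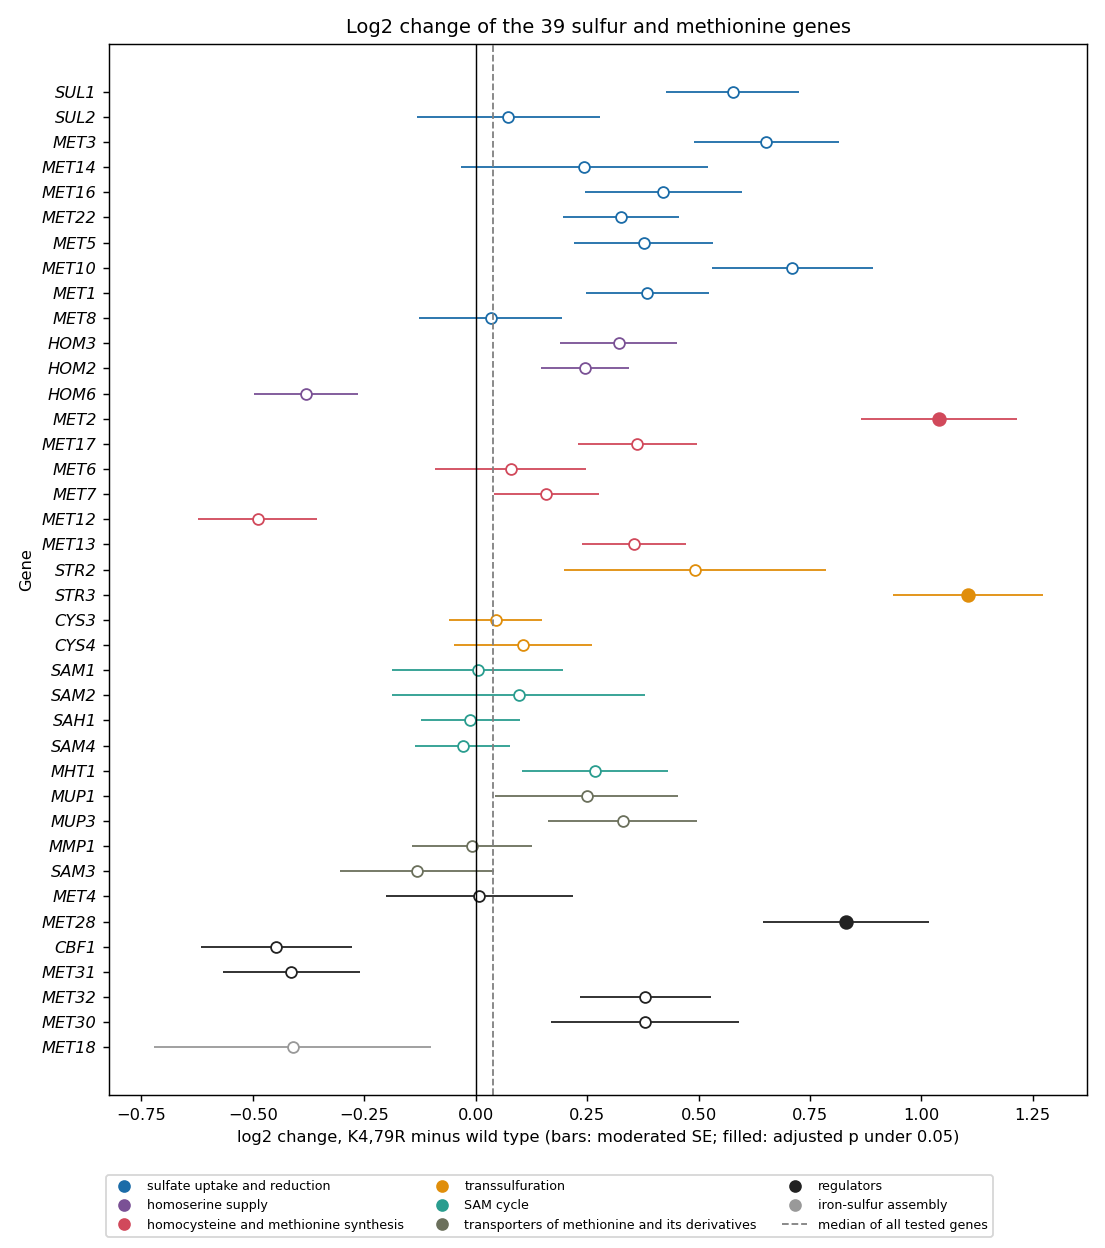
Log2 change of each of the 39 genes, K4,79R minus wild type, on the log2(signal + 3.605) scale, with the moderated standard error as a bar (3 arrays a group), colours for the genes' roles, filled points for the 3 genes past the threshold and a dashed line at the median of all tested genes. The 10 genes of sulfate uptake and reduction all lie to the right of 0, and STR3, MET2 and MET28 lie farthest to the right.

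Of the 10 genes of sulfate uptake and reduction, none passed the test in either direction. All 10 had a positive log2 change, with a median of 0.38 and a range of 0.03 to 0.71, beside 54.9% positive among all tested genes. SUL1 is 1 of the 10 and was tested only through its mutant arrays. SUL2 and MET8 turned negative with quantile normalization and with a common median. Among the 10, all mutant arrays read above all wild-type arrays in 7, or in 6 of the 9 besides SUL1, beside 16.7% of all tested genes. MET10, the alpha subunit of sulfite reductase, read 51.9, 41.2 and 49.1 on wild-type arrays 1 to 3 and 81.2, 97.2 and 63.6 on mutant arrays 1 to 3. The groups did not overlap, mutant array 3 lay closest to wild type, and the log2 change of 0.71 ± 0.18 (SE) missed the threshold (adjusted p = 0.0711). MET3, ATP sulfurylase, which activates sulfate in the first step, read 45.1, 37.5 and 42.6 in wild type and 61.3, 81.8 and 61.2 in the mutant. Here mutant array 2 stood highest, and the change of 0.65 ± 0.16 also missed the threshold (adjusted p = 0.0668). MET3 passed it with quantile normalization and with the constants divided out.

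SUL1, a high-affinity sulfate permease, was the dimmest member, at 5.40, 4.0 and 5.10 on the wild-type arrays and 7.65, 10.3 and 9.07 on the mutant arrays. These signals did not overlap, but the wild-type mean of 4.83 lies under the filter's limit of 6.73 and the mutant mean of 8.99 above it, so SUL1 was tested only because it was higher in the mutant. Its separation and test therefore add no support, and the offset shrinks a ratio of means of 1.86 to a log2 change of 0.58 ± 0.15 (adjusted p = 0.0768). SUL2, the other permease, read 16.7, 24.7 and 23.1 against 20.7, 18.8 and 29.2, overlapping throughout (log2 0.07 ± 0.21). The test compared each permease with itself only, so that a difference between the 2 was not tested.

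MET16, which reduces the activated sulfate to sulfite, read 22.9, 19.9 and 23.1 in wild type and 34.9, 33.9 and 24.0 in the mutant, where array 3 barely cleared the highest wild-type value. MET5, the beta subunit of sulfite reductase, averaged 100.3 ± 17.4 (SD, n = 3) over the wild-type arrays and 130.4 ± 12.1 over the mutant arrays (log2 0.38 ± 0.16). MET1, which makes the siroheme cofactor of that reductase, stood at 77.9 ± 6.04 against 103 ± 13.4 (log2 0.39 ± 0.14), without overlap. MET8, which completes siroheme, read 46.8 ± 2.90 and 48.4 ± 8.15 and overlapped.

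MET22, a phosphatase that removes the by-product of sulfate reduction, read 139, 147 and 157 in wild type and 158, 198 and 204 in the mutant. Its mutant array 1 lay only just above the wild-type values (log2 0.33 ± 0.13 with all arrays, adjusted p = 0.196). MET14, the kinase of the second activation step, read 71.9, 73.8 and 69.5 in wild type and 52.1, 126 and 94.3 in the mutant. Mutant array 1 was thus the lowest of all 6 and mutant array 2 the highest, and the change of 0.24 ± 0.28 (adjusted p = 0.641) carries that spread.

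**Figure D2:**
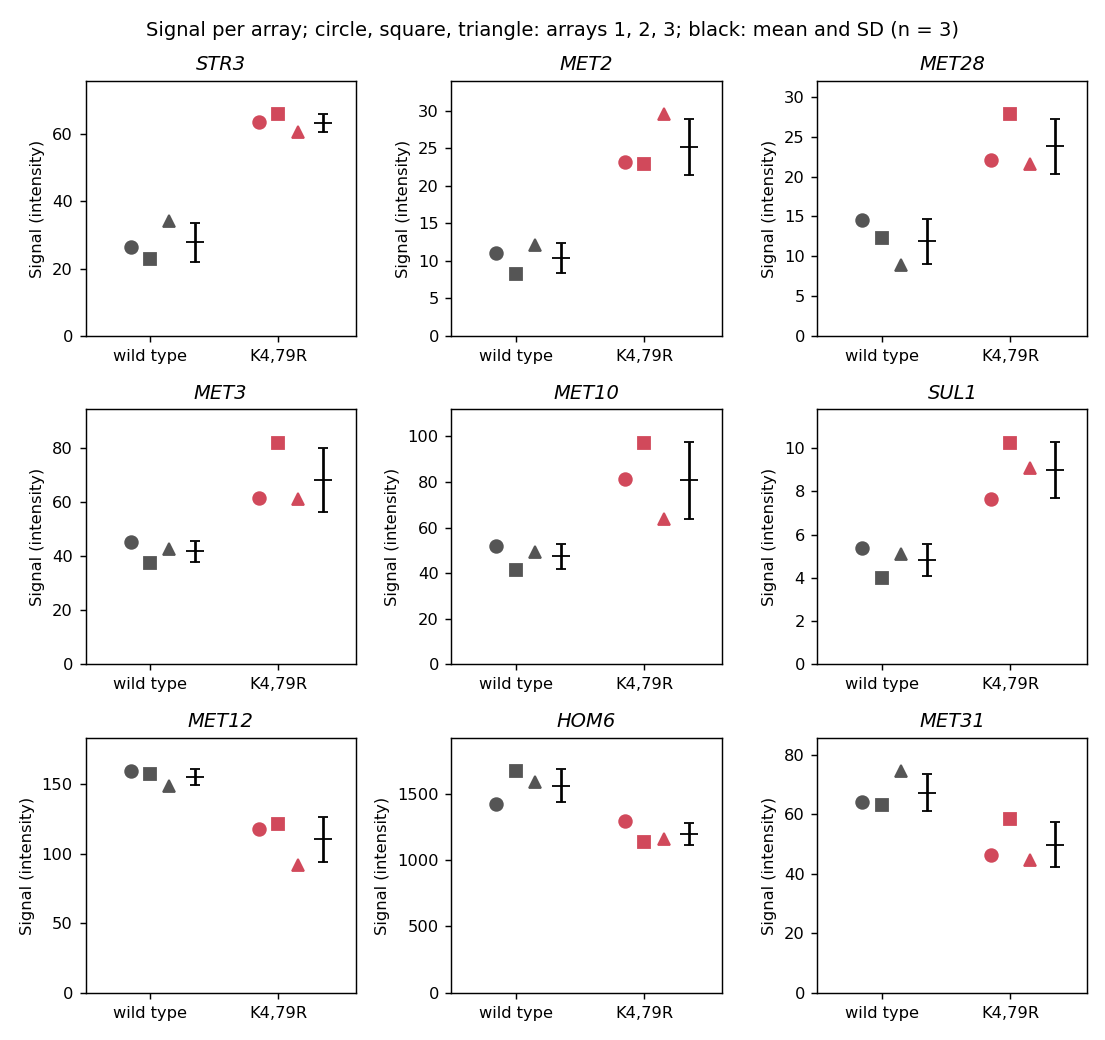
Signal (intensity, linear axis from 0) per array for 9 members, wild type in grey and K4,79R in red, with arrays 1, 2 and 3 as circle, square and triangle and the mean ± SD (n = 3) in black. The top row holds the 3 genes that rose, the middle row MET3, MET10 and SUL1, which did not overlap but missed the threshold, and the bottom row MET12, HOM6 and MET31, which read lower in the mutant without overlap and also missed it.

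The homoserine branch, which supplies the carbon skeleton, held members of opposite sign, none of them past the threshold. HOM3, aspartate kinase, and HOM2, aspartate semialdehyde dehydrogenase, catalyse its opening steps. HOM2 read 458, 455 and 483 in wild type and 590, 530 and 539 in the mutant (log2 0.25 ± 0.10, adjusted p = 0.197), without overlap. HOM3 read 157, 158 and 190 against 189, 237 and 209, where mutant array 1 fell just below wild-type array 3 (log2 0.32 ± 0.13, adjusted p = 0.202). HOM6, homoserine dehydrogenase, which makes homoserine itself, read 1424, 1669 and 1590 in wild type and 1293, 1137 and 1162 in the mutant. All its mutant arrays were below all wild-type arrays, with a log2 change of -0.38 ± 0.12 (adjusted p = 0.106).

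MET2, homoserine O-acetyltransferase, takes homoserine into methionine synthesis. It read 11, 8.20 and 12.1 in wild type and 23.1, 22.9 and 29.5 in the mutant, so the lowest mutant array was well clear of the highest wild-type array. MET2 rose by a log2 change of 1.04 ± 0.17 (limma adjusted p = 0.0214), which is 2.05-fold on the offset scale, and its ratio of means was 2.41. Among all tested genes 99.1% had the same or a lower log2 change. MET17, which joins sulfide to the acetylated homoserine, was bright in both groups, at 1148, 1356 and 1397 against 1556, 1573 and 1893. Its groups did not overlap (log2 0.36 ± 0.13, adjusted p = 0.166).

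The last step to methionine and its folate supply gave mixed signs. MET6, methionine synthase, read 381, 445 and 437 in wild type and 568, 357 and 430 in the mutant. Mutant array 1 was the highest and mutant array 2 the lowest of all 6, and the log2 change was 0.08 ± 0.17. MET13 and MET12 both encode methylenetetrahydrofolate reductase, the enzyme that makes the methyl donor for methionine synthase, and MET13 is the main isozyme. MET13 read 89.2, 85.9 and 95.7 in wild type and 125, 109 and 115 in the mutant (log2 0.35 ± 0.12, adjusted p = 0.130). MET12 went the other way, at 159, 157 and 149 in wild type and 117, 121 and 91.9 in the mutant (log2 -0.49 ± 0.13, adjusted p = 0.0848). Both isozymes had groups that did not overlap, in opposite directions, and neither passed the test. MET7, which lengthens the glutamate tail of folates, averaged 241 ± 24.0 and 269 ± 21.5 with overlap.

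Transsulfuration, the path between homocysteine and cysteine, runs both ways in yeast. STR3, cystathionine beta-lyase, which leads from cystathionine to homocysteine, read 26.5, 22.7 and 34.2 in wild type and 63.4, 65.8 and 60.5 in the mutant. STR3 rose by a log2 change of 1.10 ± 0.17 (limma adjusted p = 0.0164), 2.15-fold on the offset scale with a ratio of means of 2.27. Its mutant arrays were close to each other, with an SD of 2.64 beside 5.86 in wild type. STR2, cystathionine gamma-synthase, acts just before it. STR2 read 33.6, 42.0 and 32.3 in wild type and 30.2, 72.3 and 62.5 in the mutant, where array 1 lay below every wild-type array and arrays 2 and 3 above them (log2 0.49 ± 0.29, adjusted p = 0.369).

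The enzymes of the opposite route, from homocysteine to cysteine, showed smaller differences. CYS4, cystathionine beta-synthase, averaged 688 ± 89.7 in wild type and 743 ± 128 in the mutant (log2 0.11 ± 0.15). CYS3, cystathionine gamma-lyase, averaged 1223 ± 85.4 and 1260 ± 18.6 (log2 0.04 ± 0.11). In both genes the groups overlapped. The difference between the 2 routes was not tested.

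Genes of the SAM cycle stood near 0, with none of 5 called and a median log2 change of 0.00. SAM1 and SAM2 encode SAM synthetases that resemble each other closely, and their probe sets carry no suffix for shared probes, so cross-hybridization was not tested. SAM2 read 293, 294 and 339 in wild type and 194, 423 and 434 in the mutant. SAM1 read 327, 351 and 338 against 244, 381 and 420, with the same split of mutant array 1 below wild type and arrays 2 and 3 above it. Log2 changes over all arrays were 0.00 ± 0.19 for SAM1 and 0.10 ± 0.28 for SAM2.

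SAH1, which clears the S-adenosylhomocysteine left after methyl transfer, averaged 740 ± 42.7 and 735 ± 66.5 (log2 -0.01 ± 0.11). SAM4 and MHT1 encode homocysteine methyltransferases that use SAM and S-methylmethionine. SAM4 averaged 541 ± 36.6 in wild type and 531 ± 37.7 in the mutant (log2 -0.03 ± 0.11). MHT1 was dim, at 14.0, 13.8 and 11.3 against 14.8, 19.9 and 14.8, with mutant values that only just cleared the wild-type ones (log2 0.27 ± 0.16, adjusted p = 0.378).

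None of the 4 transporters of methionine and its derivatives passed the test, and the groups overlapped in all 4. MUP1, the high-affinity methionine permease, read 309, 281 and 212 in wild type and 275, 419 and 270 in the mutant, a spread within each group larger than the difference of means (log2 0.25 ± 0.20). MUP3, a low-affinity permease, averaged 21.7 ± 2.71 and 28.3 ± 4.21 (log2 0.33 ± 0.17, adjusted p = 0.288). MMP1, the S-methylmethionine permease, lies next to MHT1 in the RefSeq gene order and stood at 40.3 ± 2.63 and 39.99 ± 1.23. SAM3, the SAM permease, lies next to SAM4. Its brightest of 5 probe sets, which has a suffix for shared probes, gave a log2 change of -0.13 ± 0.17, and in a fit of all probe sets the 5 ranged from -0.30 to 0.37, none of them called. For the brightest, the change was -0.32 without mutant array 1 and 0.00 without mutant array 2.

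Regulators of the pathway held 1 called gene of 6. MET28, a leucine zipper cofactor that steadies Met4 on DNA, read 14.5, 12.3 and 8.90 in wild type and 22.0, 27.8 and 21.6 in the mutant. MET28 rose by a log2 change of 0.83 ± 0.19 (1.78-fold on the offset scale, ratio of means 2.00), with a limma adjusted p of 0.0488 that lies just inside the threshold. It fell outside with the smaller offset, with no filter on low signal and without probe sets of shared probes. MET4, the activator itself, read 55.1, 56.6 and 50 against 38.5, 70.1 and 58.4, again with mutant array 1 below and arrays 2 and 3 above the wild-type values (log2 0.01 ± 0.21).

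The DNA-binding factors of the Met4 complex did not share a direction. CBF1, which binds both methionine gene promoters and centromeres, read 65.2, 60.3 and 84.0 in wild type and 42.7, 53.7 and 53.7 in the mutant (log2 -0.45 ± 0.17, adjusted p = 0.176). MET31 and MET32 encode related zinc finger proteins that bind the same sites. MET31 read 64.2, 63.0 and 74.4 against 46.4, 58.5 and 44.5, all mutant arrays lower (log2 -0.41 ± 0.15, adjusted p = 0.168). MET32 read 9.70, 12.2 and 10.1 against 16.4, 14.1 and 14.4, all mutant arrays higher (log2 0.38 ± 0.15, adjusted p = 0.182). This pair thus separated in opposite directions, as MET12 and MET13 did, without either gene passing the test, and the difference within each pair was not tested. MET30, the F-box protein that restrains Met4, averaged 58.7 ± 15.7 and 76.4 ± 12.3 with overlap.

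MET18 was counted with the pathway because its loss makes cells need methionine. It acts in placing iron-sulfur clusters into proteins and is no enzyme of sulfur metabolism. Its brightest of 5 probe sets, with a suffix for shared probes, read 47.7, 63.5 and 59.1 in wild type and 22.7, 55.8 and 55.2 in the mutant (log2 -0.41 ± 0.31). The difference came with mutant array 1, and without that array the log2 change was -0.02. The other 3 probe sets that passed the filter ranged from -0.11 to 0.10 on the log2 scale.

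**Figure D3:**
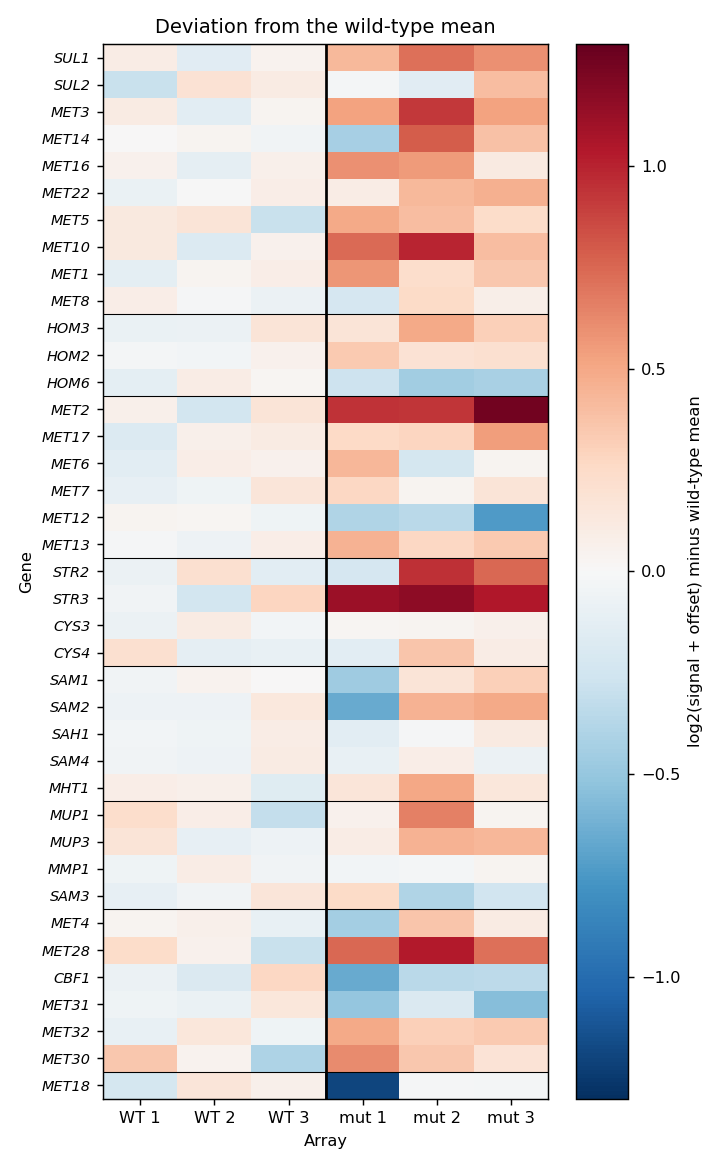
Deviation of each member on each array from the wild-type mean of log2(signal + 3.605), red for higher and blue for lower, with genes grouped by role between thin lines and the groups parted by the vertical line. MET14, STR2, SAM1, SAM2 and MET4 are blue on mutant array 1 and red on mutant arrays 2 and 3, while STR3, MET2 and MET28 are red on all 3.

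Seen by array, the members' median deviation from the wild-type mean was 0.10, 0.31 and 0.21 on mutant arrays 1, 2 and 3, on the log2 scale. Over all tested genes it was -0.11, 0.14 and 0.10, so that the members' median stood above the array's own median on each of the 3. A member lay above its wild-type mean 23, 29 and 32 times of 39 on these arrays, SUL1 included. On mutant arrays 2 and 3 most tested genes did so too, since the median over all genes was positive there. The mutant arrays spread more than the wild-type arrays in 28 of 39 members, as they did in 69.8% of all tested genes. These spreads are at the deposited scaling, where only the mutant columns carry unequal constants. The part of the constants in the spread was not tested. In 5 members (MET14, STR2, SAM1, SAM2 and MET4) mutant array 1 lay below all wild-type arrays while arrays 2 and 3 lay above them, and SAM3 showed the reverse. The share of all tested genes with such a split is not given here, so it is not read as particular to these members.

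Leaving out mutant array 1 added 7 members to the 3 that rose and gave 2 that fell. The fit without it holds 5 arrays, and 20.9% of all its genes were called, 76.8% of these higher. Its mutant arrays, 2 and 3, both carry constants above 1 in the deposited values, 1.09 and 1.11. The median log2 change was 0.11 over all genes and 0.28 over the members, beside 0.04 and 0.25 with all arrays. The part of the constants in the added calls was not tested. STR2 then had a log2 change of 0.85 ± 0.15 (limma adjusted p = 0.0101), MET3 0.72 ± 0.15 (adjusted p = 0.0185), MET10 0.70 ± 0.19 (adjusted p = 0.0377) and MET14 0.58 ± 0.14 (adjusted p = 0.0244). SAM2 stood at 0.47 ± 0.10, MET22 at 0.44 ± 0.09 and HOM3 at 0.40 ± 0.12. The 2 that fell were MET12, at -0.54 ± 0.13, and HOM6, at -0.44 ± 0.12. STR3, MET2 and MET28 stood at 1.10, 1.08 and 0.87, close to their values with all arrays, and SUL1 no longer passed the filter on low signal.

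**Figure D4:**
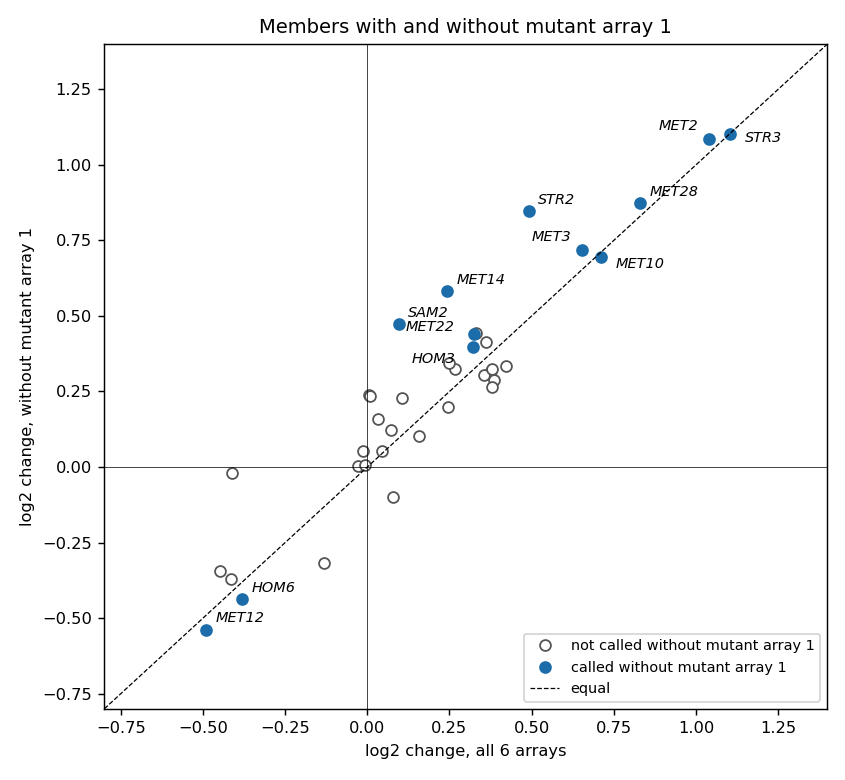
Log2 change of the 38 members tested in both fits, with all 6 arrays on the horizontal axis and without mutant array 1 on the vertical axis, and a dashed line of equal values. The 12 genes called without that array are filled and named, and STR2, SAM2 and MET14 lie farthest above the line among them.

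Beyond the core pathway, 63 genes that use or supply its compounds were listed by role, also with earlier results of these data known. A tested probe set was present for 61, all but SET2 and AGP3. Of these, 1 rose and 2 fell, beside 2.81% and 1.45% of all genes, and the median log2 change was 0.01. Without mutant array 1, 15 rose and 3 fell of 62 tested, beside 16.0% and 4.83% of all genes. SEO1, a putative permease linked to uptake of sulfur-containing compounds, read 10.3, 14.7 and 10.2 on the wild-type arrays and 28.3, 23.7 and 21.7 on the mutant arrays, a rise of 0.88 ± 0.18 on the log2 scale (limma adjusted p = 0.0354). With quantile normalization it missed the threshold, at 0.75 (adjusted p = 0.0522), and its adjusted p lay between 0.0186 and 0.154 over 16 alternatives. It was the only called gene of 10 tested for uptake and other sulfur sources, a list with a median log2 change of 0.21 in which 5 genes had all mutant arrays above wild type, beside 16.7% of all tested genes. MDE1, an enzyme of the salvage path that returns the methylthio group of SAM to methionine, fell from 256 ± 5.97 to 158 ± 21.1 (log2 -0.69 ± 0.12, adjusted p = 0.0252). It was the only called gene of 12 for methionine salvage and polyamines, a list with a median log2 change of -0.03.

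Genes of one-carbon supply, which feed methyl groups to methionine synthase, had 1 of 9 lower and none higher, beside 1.45% and 2.81% of all tested genes. The lower gene was GCV1, a glycine cleavage subunit, at -0.61 ± 0.11 on the log2 scale (limma adjusted p = 0.0275). With each array left out in turn, SEO1 and GCV1 were called without mutant array 1 only, and MDE1 without mutant array 1 and without mutant array 3. In 5 of the 9 all mutant arrays read below all wild-type arrays, beside 12.2% of all tested genes, and the list's median log2 change was -0.34. None of 15 genes of glutathione and thiol redox was called, with a median of 0.00, nor was any of 10 methyltransferases that use SAM or of 5 genes of the ubiquitin ligase around Met30 and GCN4. Without mutant array 1 these 3 lists had 5, 3 and 0 genes higher and none lower, beside 16.0% higher and 4.83% lower among all genes. In that fit the uptake list had 5 of 11 higher, the salvage list 1 higher and 1 lower, and the one-carbon list 1 higher and 2 lower. Among the methyltransferases OPI3, which methylates phospholipids, came nearest to the threshold (log2 0.45 ± 0.10, adjusted p = 0.0511). It was named after its values were seen. SET1 and DOT1, the enzymes that methylate lysines 4 and 79 of H3, had log2 changes of -0.11 ± 0.21 and 0.00 ± 0.21.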

How the data were processed

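RNA from 3 wild-type and 3 K4,79R samples was hybridized as biotin-labelled cRNA. The deposited table holds linear-scale intensity, and the submitters' processing notes name MAS5 without a version. Every deposited mutant column was found to be whole multiples of 0.1 times a constant (tolerance 0.001 of that unit), 0.922, 1.09 and 1.11 for arrays 1, 2 and 3, and 1 in wild type. Scanner files and gene sequences were not used here.

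Of 9335 probe sets 60 are controls. Of the other 9275, 6504 had 1 listed gene, 328 several and 2443 none. Genes were named through the RefSeq table, and all 39 members matched. The values were used as deposited. An offset of 3.605 (0.1 of the median of the array medians, 36.05) was added before log2, which understates changes of dim genes. Probe sets in the lowest 20% by mean signal were dropped, and the brightest probe set stood for a gene. Probe set names with the suffixes s, x, i, f, g or r were taken as shared probes. The 5380 genes were fitted with limma 3.58.1 in R 4.3.3 (lmFit, eBayes with an intensity trend, two-sided, 4 residual degrees of freedom, Benjamini-Hochberg over all genes, threshold 0.05), after a check on simulated data. Changes are mutant minus wild type with moderated SE. The number of arrays limits precision, and 3 against 3 arrays cannot reach 0.05 in an exact permutation test, so none is given.

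All 39 members are described. Of the other sulfur-linked genes the called ones are named, with OPI3, SET1 and DOT1 in addition. Members and lists were chosen with earlier results of these data known. Scaling, offset, filter, probe set choice, variance model, a replicate block and leaving out each array were run as alternatives.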

Additional observations from a re-analysis of the deposited data

How the results depend on the processing

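The counts with all arrays were 3 members higher and none lower, 151 and 78 of all genes, and 1 and 2 of the other sulfur-linked genes. For members higher, the count was 1 without the lowest 40% of probe sets (33 members tested). MET2 and MET28 lay under that filter's limit of mean signal (22.9) and were not tested there. Leaving out each array gave 0 to 10 members higher and 0 to 2 lower. All genes ranged from 16 to 863 higher and 5 to 260 lower with an array left out, the other sulfur-linked genes from 0 to 15 higher and 0 to 3 lower. All genes called lower numbered 187 with quantile normalization, 202 with a common median, 164 with the constants divided out and 50 without an intensity trend. The other sulfur-linked genes had 2 higher with a common median, with the constants divided out and with the larger offset, and 4 lower with a common median. The replicate numbers of the titles were not shown to pair the arrays, since deviations of same-numbered arrays correlated at -0.15, 0.07 and -0.02. With them as a replicate block 0 members, 18 higher and 6 lower of all genes and 0 of the other sulfur-linked genes were called. STR3 was called in 12 of 17 alternatives (log2 0.83 to 1.24), MET2 in 10 of 16 and MET28 in 7 of 16, all positive.

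Signs turned only for members that were not called. With quantile normalization these were SUL2 (-0.054), MET8 (-0.051), MET6 (-0.015), SAM1 (-0.069) and MET4 (-0.057). With a common median they were SUL2 (-0.014), MET8 (-0.062), MET6 (-0.022), CYS3 (-0.057), SAM1 (-0.097), SAM2 (-0.0048) and MET4 (-0.089). With the constants divided out they were MET8 (-0.014), CYS3 (-0.0065), SAM1 (-0.047) and MET4 (-0.041). Without shared-probe suffixes MET18 stood at 0.099. With an array left out, signs turned within SUL2 (-0.091 to 0.19), SAM1 (-0.15 to 0.24), MMP1 (-0.035 to 0.041), MET8 (-0.071 to 0.16), SAH1 (-0.077 to 0.053), SAM4 (-0.086 to 0.026), MET4 (-0.17 to 0.24), MET6 (-0.098 to 0.23), MET14 (-0.028 to 0.58), CYS4 (-0.020 to 0.23) and SAM2 (-0.10 to 0.47). The cause was not tested.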
